A study of Mus musculus with 96 samples.

Results

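The AP-1 Fos and Jun family was described here from 8 genes, Fos, Fosb, Fosl1, Fosl2, Jun, Junb, Jund and Atf3, taken by symbol from the 22709 genes of a normalised count table. The study sequenced polyadenylated RNA from the hippocampus and prefrontal cortex of mice whose labels give maternal immune activation (MIA) or saline, the colony-stimulating factor 1 receptor inhibitor PLX5622 (PLX) or its control, and sex. Each of the 48 sample labels has 1 library from each tissue, which gives 96 libraries in 16 groups. The saline control group had 6 females and 6 males, the MIA control group 7 females and 5 males, and the saline PLX and MIA PLX groups 6 of each sex. Strain, age, the agent of immune activation, the dose and timing of the inhibitor, and litter were not given in the sources used here. Offspring of 1 dam share an exposure, so p-values measure the spread between these libraries and could be too small if littermates were sampled.

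AP-1 is a dimer of basic leucine zipper proteins. Fos proteins (c-Fos, FosB, Fra-1 from Fosl1 and Fra-2 from Fosl2) cannot pair with each other and bind DNA as partners of Jun proteins, whereas Jun proteins also pair among themselves. Fos, Fosb and Junb are immediate early genes: in neurons, synaptic activity and calcium entry switch them on through CREB and serum response factor, without new protein synthesis, and their mRNA is short-lived. Jund is expressed at rest, and Atf3, a stress-induced relative of the ATF/CREB group, pairs with Jun proteins. In bulk tissue, fewer cells of a type and less RNA per cell cannot be told apart.

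The promoters of 4 members are shown because they hold TGACG, the core of the CREB and ATF recognition sequence, within 250 bases upstream of the start. Each line gives the last 120 of those bases on the gene's strand, 5′ to 3′, from RefSeq on GRCm38.p6. The libraries were mapped to GRCm39, so no position of a read is implied. Capitals mark TGACG or its reverse complement CGTCA and, in Fos, the TATAAA box. Counted upstream from the start, TGACG lies at bases 66 to 62 in Fos, 60 to 56 in Fosb and 106 to 102 in Junb. Its reverse complement lies at 7 to 3 in Atf3, and TATAAA at 33 to 28 in Fos. Another TGACG of Fos, at 129 to 125, lies outside the 120 bases shown.
Fos, chr12:85473770-85473889, plus strand: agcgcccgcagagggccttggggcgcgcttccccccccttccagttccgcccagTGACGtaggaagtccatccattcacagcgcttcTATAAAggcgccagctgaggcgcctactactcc
Fosb, chr7:19310046-19310165, minus strand: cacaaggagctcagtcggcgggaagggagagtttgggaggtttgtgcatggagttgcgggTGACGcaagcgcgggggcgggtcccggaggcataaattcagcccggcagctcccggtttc
Junb, chr8:84978749-84978868, minus strand: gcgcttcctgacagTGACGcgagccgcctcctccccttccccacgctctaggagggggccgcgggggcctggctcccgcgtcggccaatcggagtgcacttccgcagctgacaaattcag
Atf3, chr1:191183334-191183453, minus strand: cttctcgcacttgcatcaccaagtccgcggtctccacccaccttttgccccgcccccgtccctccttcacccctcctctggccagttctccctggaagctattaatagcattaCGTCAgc

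RefSeq promoter entries matched 7 members, all but Fosl1. On either strand, TGACG was present in 4 of those 7 and in 17.9% of 27025 promoters searched in the same way. TATAAA was present in 1 of 7, Fos, and in 8.12% of all. The full CREB palindrome TGACGTCA, which contains TGACG, was found in 0 of 7 and in 1.62% of all, the AP-1 site TGANTCA in 0 of 7 and 6.87%, and the CArG box of serum response factor in 0 of 7 and 1.4%. These matches describe letters in this window and are not evidence of binding.

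In units of 1 M reads, hippocampal libraries held 22.2 to 26.7 and prefrontal libraries 22.8 to 25.9. Most marker genes of hippocampal subfields and neocortex matched the tissue labels: the dentate gyrus factor Prox1 had a median of 3531 normalised counts in hippocampus and 336 in prefrontal cortex. The exceptions were the hippocampal marker Wfs1 (medians of 3131 in hippocampus and 3539 in prefrontal cortex) and the neocortical marker Fezf2 (804 and 632). For 14 labels, both libraries had a high share of counts in genes for ribosomal proteins and oxidative phosphorylation (1.34 to 1.53% against 0.957 to 1.18% in hippocampus). They stand apart from the rest and are called the parting libraries below. These labels were 12 of the 24 controls and 2 of the 24 treated with PLX, and among controls without PLX they made up 3 of 6 females and 4 of 6 males after saline, and 2 of 7 females and 3 of 5 males after MIA. In a fit with a term for them, their log2 difference from the rest was 0.43 (SE 0.11) for Jund and 0.09 (SE 0.23) for Fos in prefrontal cortex, and 0.24 (SE 0.30) for Fos and 0.09 (SE 0.15) for Fosb in hippocampus. Atf3 had 0.38 (SE 0.29) in prefrontal cortex and 0.28 (SE 0.17) in hippocampus. Fosl2 had -0.18 in each (SE 0.13 and 0.07). The values not listed lay between -0.09 and 0.18. The median absolute difference over all genes was 0.20 in hippocampus and 0.22 in prefrontal cortex. Striatal projection neuron markers summed to 2763 to 24865 in prefrontal cortex and choroid plexus markers to 791 to 95858 in hippocampus, and their part in the results was not tested.

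Per kilobase of transcript, Jun was the most abundant member in hippocampus, with a median of 731 normalised counts per kilobase over 48 libraries, and Fosl1 the least, with 1.65. Junb (486), Jund (380), Fosl2 (285), Fos (125), Fosb (88.1) and Atf3 (10.3) lay between them on the same scale. In prefrontal cortex the order was Junb (732), Jund (469), Fos (376), Jun (354), Fosl2 (247), Fosb (176), Atf3 (13.2) and Fosl1 (2.7). Neighbours such as Fos and Jun in prefrontal cortex lay well within their spread across libraries. Fosl1, which encodes Fra-1, had 0.93 to 9.47 normalised counts in hippocampus and 0.00 to 11.9 in prefrontal cortex. It did not reach 10 normalised counts in 5 libraries and was not tested, so the counts below are of 7 members.

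Fos, Fosb, Junb, Atf3 and Jund stood higher in prefrontal cortex than in hippocampus, and Jun and Fosl2 stood lower. Fos had 285 to 2600 normalised counts (median 793) in prefrontal cortex and 85.9 to 1361 (median 264) in hippocampus. Within a label, prefrontal cortex was higher for Fos in 48 of 48 labels, and the averaged log2 difference was 1.45 (SE 0.15, adjusted p = 1.01e-14, limma with Benjamini-Hochberg adjustment). This fit did not pair the tissues by label, and pairing them changed no member's call. Fosb was also higher in 48 of 48 labels, with a log2 difference of 0.99 (SE 0.09). Jun was lower in prefrontal cortex in all 48 labels, with a log2 difference of -1.06 (SE 0.05, limma adjusted p = 6.72e-35). Junb (0.47), Atf3 (0.57) and Jund (0.30) were higher and Fosl2 (-0.23) lower in prefrontal cortex. All 7 members tested passed, against 65.8% of all 20598 genes, so a difference between the tissues is common.

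**Figure D1:**
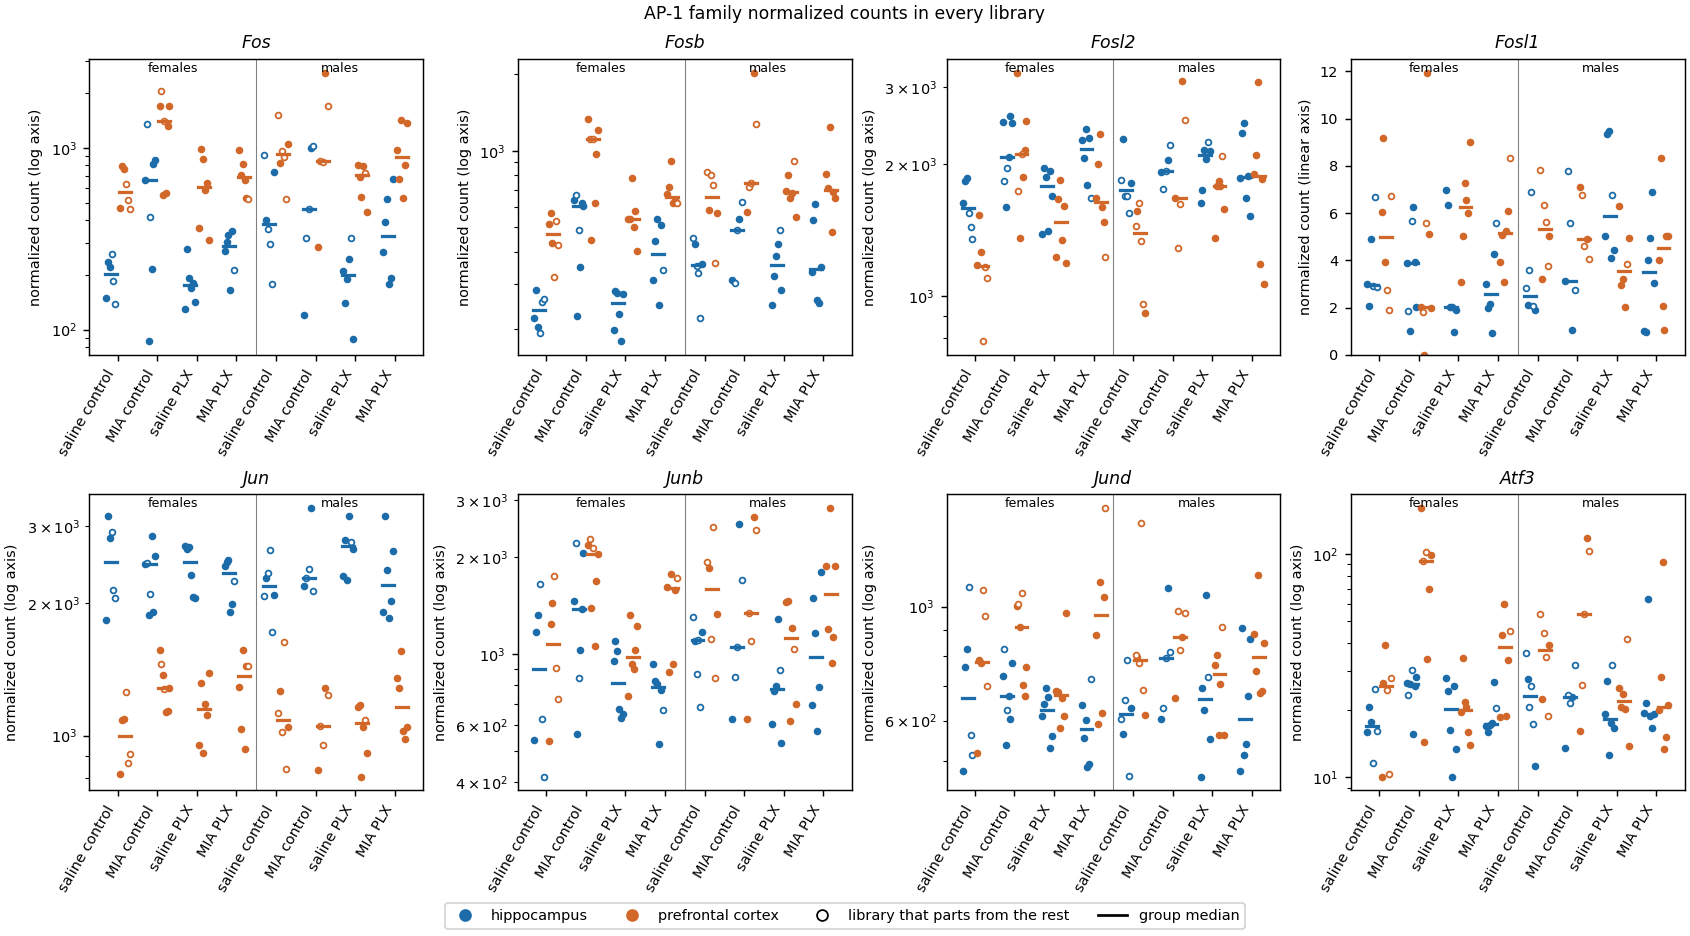
Normalised counts of the 8 members in every library of the 8 groups, with hippocampus in blue and prefrontal cortex in orange; open circles are parting libraries and bars are group medians (log axis, linear for Fosl1). In MIA control females, 5 of 7 Fos values lie above the saline control females' highest in each tissue.

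The first comparison asks whether maternal immune activation left a difference in the offspring's AP-1 mRNA, without the inhibitor. In control females, Fos, Fosb and Fosl2 had positive log2 fold changes at an unadjusted p under 0.05 in each tissue, and Atf3, Jun and Junb in prefrontal cortex, but no member passed the test over all genes with limma. The groups overlapped for all 7 members. For Fos, MIA control females replicate 3 and replicate 5 lay below the highest saline female in each tissue.

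Fos, the archetypal activity marker, had 138 to 260 normalised counts (median 203) in the hippocampus of saline control females and 85.9 to 1361 (median 666) in MIA control females. In prefrontal cortex the ranges were 461 to 795 (median 574) and 551 to 2044 (median 1400). In each tissue 5 of 7 MIA females lay above every saline female. Replicate 3, the lowest, had 85.9 and 551 in hippocampus and prefrontal cortex, below the saline median in both. The log2 fold changes, on the scale of log2(normalised count + 1), were 1.28 (SE 0.45, limma adjusted p = 0.679) in hippocampus and 1.01 (SE 0.34, adjusted p = 0.809) in prefrontal cortex.

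Fosb, which also gives the long-lived splice form known as deltaFosB, was the member whose groups separated furthest relative to their spread. Its hippocampal values were 192 to 284 (median 238) in saline control females and 224 to 669 (median 605) in MIA control females. In prefrontal cortex they were 321 to 571 (median 473) and 447 to 1337 (median 1116). In both tissues 6 of 7 MIA females exceeded the highest saline female, the exception being replicate 3. The log2 fold changes were 1.05 (SE 0.23, adjusted p = 0.114 by limma) in hippocampus, rank 4 of 19938 genes by p, and 1.00 (SE 0.23, adjusted p = 0.473) in prefrontal cortex, rank 2 of 19841.

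Fosl2, the gene of Fra-2, had 1348 to 1862 normalised counts (median 1589) in the hippocampus of saline control females and 1592 to 2572 (median 2079) in MIA control females. The prefrontal ranges were 786 to 1532 (median 1172) and 1355 to 3237 (median 2107). Every MIA female was above the saline median in each tissue, while the group ranges overlapped at their edges. The log2 fold changes were 0.40 (SE 0.12, limma adjusted p = 0.41) and 0.85 (SE 0.20, adjusted p = 0.473).

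Among the Jun partners, Junb had 415 to 1648 (median 899) against 563 to 2215 (median 1379) normalised counts in hippocampus, and 537 to 1750 (median 1070) against 1059 to 2273 (median 2035) in prefrontal cortex, saline females first. Its log2 fold changes were 0.56 (SE 0.31, limma adjusted p = 0.777) and 0.80 (SE 0.29, adjusted p = 0.865). Jun had log2 fold changes of -0.09 in hippocampus and 0.40 (SE 0.14) in prefrontal cortex, where 5 of 7 MIA females lay above all saline females. Jund, the partner expressed at rest, had -0.00 and 0.14, with the groups overlapping widely in each tissue.

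Atf3 was low in most libraries. In the hippocampus it had 11.6 to 24.9 normalised counts (median 17.0) in saline control females and 15.6 to 30.1 (median 26.3) in MIA control females. The prefrontal values were 10.1 to 39.3 (median 25.6) and 14.4 to 161 (median 93.0), with 5 of 7 MIA females above every saline female. The log2 fold change there was 1.63 (SE 0.44, limma adjusted p = 0.627), the largest of the members, and 0.48 (SE 0.26) in hippocampus.

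By limma with Benjamini-Hochberg adjustment, 0 of 7 members passed in control females, against 0.00502% of genes in hippocampus (1 gene, Gm13502, named after its value was seen) and 0% in prefrontal cortex. At an unadjusted p under 0.05, 3 of 7 members were higher in MIA females in hippocampus, against 3.07% of genes, and 6 of 7 in prefrontal cortex, against 2.20%. Groups that did not overlap were seen for 0 of 7 members, against 0.160% and 0.131% of genes. DESeq2 on recovered reads called Fosb in hippocampus (log2 1.13, adjusted p = 0.00301) and prefrontal cortex (log2 1.06, adjusted p = 0.0286), while edgeR's quasi-likelihood test called 0 members (Fosb adjusted p = 0.0834 and 0.376). The shares of all genes that DESeq2 and edgeR called are not given here, so these results have no background beside them. The limma result changed with 1 library: without MIA control females replicate 3, limma called Fosb in hippocampus (log2 1.23, adjusted p = 0.0144) and prefrontal cortex (log2 1.17, adjusted p = 0.0355). Each of the 13 libraries per tissue was left out in turn, and no other case called a member. Over these cases limma called 0 to 5 of all genes in hippocampus and 0 to 3 in prefrontal cortex. With all libraries kept, limma called 1 member in hippocampus with a term for the parting libraries and 2 with array weights. Those fits have no share of all genes beside them here. Both tissues came from the same labels, so their values are not independent. Without the parting libraries the Fosb log2 fold changes were 0.96 and 0.75 and those of Fos 0.97 and 0.65. Haemoglobin and other blood genes summed to a median of 67.7 normalised counts in the hippocampus of MIA control females and 211 in saline control females, and their part in the result was not tested.

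In control males the same comparison gave smaller values for most members. Hippocampal Fos was 120, 321, 460, 1001 and 1018 in the 5 MIA males and 177 to 915 (median 380) in the 6 saline males. Prefrontal Fos was 285, 833, 846, 1712 and 2600 against 522 to 1525 (median 923). The MIA males spanned the saline males at both ends, and the log2 fold changes were 0.11 and 0.10. Hippocampal Fosb was 304, 311, 488, 542 and 630 against 221 to 453 (median 357), a log2 fold change of 0.32. Prefrontal Fosb was 577, 721, 745, 1271 and 2029 against 364 to 825 (median 661), a log2 fold change of 0.61. Prefrontal Fosl2 had a log2 fold change of 0.60 and Atf3 of 0.54, where 2 of 5 MIA males lay above all saline males. By limma, edgeR and DESeq2 no member passed in either tissue (by limma 0% of genes did). At an unadjusted p under 0.05, 0 of 7 members were higher in hippocampus, against 1.22% of genes, and 2 of 7, Fosb and Fosl2, in prefrontal cortex, against 1.38%.

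In animals treated with PLX, MIA and saline females differed by a log2 fold change of 0.70 for Fosb in hippocampus, where the ranges were 249 to 540 (median 393) and 178 to 282 (median 252). In prefrontal cortex the Fosb log2 fold change was 0.34. PLX males had Fos log2 fold changes of 0.83 and 0.47 and Fosb log2 fold changes of 0.07 and 0.06, hippocampus first. Members passing numbered 0 of 7 in each tissue and sex, against 0% of genes, and edgeR and DESeq2 also called 0. Before adjustment (p under 0.05), limma had 2 of 7 higher in PLX females in hippocampus (Fosb and Fosl2), against 2.74% of genes in either direction, and 1 in prefrontal cortex (Jund), against 5.35%. In PLX males it had 0 of 7 in each tissue, against 2.47% and 2.89%. The difference of the MIA effect between PLX and control animals was -0.70 and -0.75 for Fos in females and 0.73 and 0.38 in males (log2). Prefrontal Fosl2 had -0.64 in females and -0.58 in males. For that interaction too, 0 of 7 members and 0% of genes passed in each tissue and sex by limma, edgeR and DESeq2 called 0 members, and at an unadjusted p under 0.05 limma had 1 of 7 in the prefrontal cortex of females (Fosl2), against 3.08% of genes. It had 0 of 7 in the hippocampus of females (2.86% of genes) and in males (2.13% in hippocampus and 4.02% in prefrontal cortex).

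Averaged over sex and inhibitor, MIA against saline gave positive log2 fold changes for all 3 tested Fos members in each tissue. Fosb had 0.54 (SE 0.12, limma adjusted p = 0.202) in hippocampus and 0.50 (SE 0.12, adjusted p = 0.281) in prefrontal cortex. Fosl2 had 0.20 (SE 0.06) and 0.42 (SE 0.11), and Fos had 0.70 (SE 0.23) and 0.46. Among the others in prefrontal cortex, Atf3 had 0.74 (SE 0.23), Junb 0.44, Jund 0.20 and Jun 0.17. In hippocampus these were 0.19, 0.25, 0.05 and -0.06. By limma 0 of 7 members passed in each tissue, as did 0% of genes. At an unadjusted p under 0.05, 3 of 7 were higher in hippocampus, against 2.45% of genes, and 7 of 7 in prefrontal cortex, against 2.96%. Without the parting libraries those counts were 2 and 4. The shares of genes above belong to the fit with all libraries, and those without the parting libraries are not given here. DESeq2 called Fosb in hippocampus (log2 0.58, adjusted p = 0.00575) and in prefrontal cortex (log2 0.55, adjusted p = 0.0256), where it also called Fosl2 (log2 0.46, adjusted p = 0.0491). edgeR called 0 members in each tissue. The share of all genes that DESeq2 called is not given here, so its calls have no background beside them.

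The MIA effect was next compared between the sexes, since the series title speaks of a sex-specific outcome. The female effect minus the male effect, averaged over inhibitor, was 0.68 for Fosb in hippocampus (SE 0.24, limma adjusted p = 0.999) and 0.33 in prefrontal cortex. Fos had 0.46 and 0.35, and hippocampal Fosl2 had 0.30. By limma, edgeR and DESeq2 0 of 7 members passed, against 0.00502% of genes by limma in hippocampus and 0% in prefrontal cortex. At an unadjusted p under 0.05, limma had 2 of 7 in hippocampus (Fosb and Fosl2), against 4.08% of genes, and 0 in prefrontal cortex, against 2.39%. After adjustment, a sex difference in the response was not shown for these genes. Females against males, averaged over the other factors, gave log2 differences of -0.35 and -0.23 for Fos and -0.23 and -0.24 for Fosb. By limma 0 of 7 members passed, against 0.246% of genes in hippocampus and 0.141% in prefrontal cortex, and edgeR and DESeq2 called 0. None was under an unadjusted p of 0.05, against 7.85% and 6.05% of genes.

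**Figure D2:**
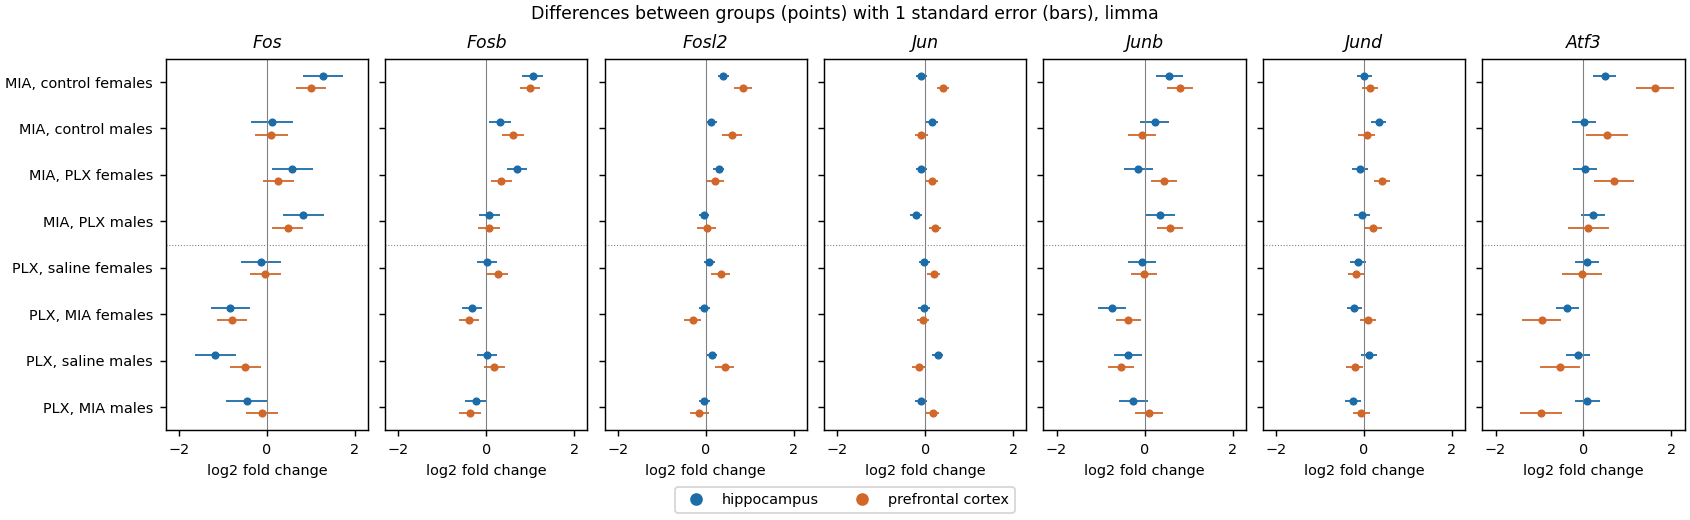
Log2 fold changes (points) with 1 SE (bars) of the 7 tested members in the 4 MIA and the 4 PLX comparisons, for hippocampus and prefrontal cortex. Fosb lies near 1 in control females of both tissues under MIA, and the PLX values of Fos lie at or below 0.

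The other genes of the pathway were taken from lists named for their roles. Of 20 immediate early genes that are induced together with Fos, 13 were higher and 1 lower in MIA control females in hippocampus at an unadjusted p under 0.05, with a median log2 fold change of 0.47, against 3.07% of genes higher. In prefrontal cortex 14 were higher and 0 lower, with a median of 0.55, against 2.20%. By limma's adjusted p, 0 of 20 passed in either tissue. Several of the 20 followed Fos across libraries, such as Nr4a1 (r = 0.92 in hippocampus and 0.93 in prefrontal cortex). These counts are therefore not independent of the Fos values or of each other. Nr4a3, an orphan nuclear receptor induced by activity, had log2 fold changes of 0.48 and 1.01, and Sik1, a kinase that restrains CREB coactivators, had 0.68 in each tissue. In control males 2 of the 20 were higher and 0 lower in each tissue at that threshold, with medians of 0.04 and 0.03. Among the upstream kinases and factors, median log2 fold changes in control females were 0.01 in hippocampus and 0.04 in prefrontal cortex, and 1 of 29 was higher in each at the unadjusted threshold. The 21 tested leucine zipper partners of AP-1 had a median of 0.07 in each tissue, and AP-1 target genes had 0.03 and -0.02. The injury genes that accompany Atf3 had -0.08 and 0.05. The median over all genes was near 0.

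PLX blocks the receptor on which microglia depend, and the microglial markers served as a check of treatment. All 6 of 6 fell with PLX in each tissue (3 and 4 of 6 with a term for the parting libraries), with log2 fold changes of -0.47 and -0.56 for Fcrls and -0.27 and -0.33 for P2ry12. Their summed level in hippocampus was 7228 to 10517 in saline control females and 6614 to 7615 in saline PLX females, so the groups overlapped. Averaged over MIA and sex, Fos fell in hippocampus and Atf3 fell in prefrontal cortex, and no other member passed. Hippocampal Fos was 85.9 to 1361 (median 340) in the 24 control libraries and 89.1 to 675 (median 211) with PLX. The ranges overlapped, and the controls alone reached above 675. Its log2 fold change was -0.64 (SE 0.23, limma adjusted p = 0.0246). Prefrontal Atf3 was 10.1 to 161 (median 37) in controls and 13.4 to 92.0 (median 20.9) with PLX, a log2 fold change of -0.62 (SE 0.23, adjusted p = 0.0306).

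One of 7 members passed in each tissue, against 40.0% of genes in hippocampus and 37.8% in prefrontal cortex, so the share of members was below the background. The remaining members had smaller values. Prefrontal Fos had a log2 fold change of -0.36 (SE 0.18, limma adjusted p = 0.1), and Junb had -0.36 (SE 0.16, adjusted p = 0.0689) in hippocampus and -0.21 in prefrontal cortex. Fosb had -0.14 and -0.09, Fosl2 0.04 and 0.08, Jun 0.03 and 0.04, and Jund -0.13 and -0.09. The difference of the PLX effect between tissues was -0.54 for Atf3 (prefrontal cortex minus hippocampus). Of the members, 0 of 7 passed for the tissue difference of the PLX effect and 0 of 7 for that of the MIA effect, each against 0% of genes. Before adjustment (p under 0.05), limma had 0 of 7 for the PLX effect, against 2.69% of genes, and 2 of 7, Jun (0.23) and Atf3 (0.56), for the MIA effect, against 2.07%. These counts came from the fit that did not pair the tissues by label.

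The PLX calls depended on the parting libraries, of which 12 were controls. With a term for them, Fos in hippocampus had a log2 fold change of -0.54 (limma adjusted p = 0.326) and Atf3 in prefrontal cortex -0.45 (adjusted p = 0.486). Without them the values were -0.61 (adjusted p = 0.457) and -0.57 (adjusted p = 0.575). The sizes thus shrank, most for Atf3 with the term, while the calls ended. Calls fell across all genes as well. With all libraries 40.0% of genes passed after adjustment in hippocampus and 37.8% in prefrontal cortex. Even before adjustment (limma p under 0.05), the share in hippocampus was 14.8% with the term and 10.7% without the parting libraries. In prefrontal cortex it was 12.3% and 9.85%. Single libraries mattered as well: Fos was lost without MIA control males replicate 6 (adjusted p = 0.0504), and Atf3 without replicate 5 or replicate 6 of that group.

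By stratum, Fos in hippocampus was 177 to 915 (median 380) in saline control males and 89.1 to 317 (median 200) in saline PLX males, a log2 fold change of -1.17 (SE 0.46, limma adjusted p = 0.193). In MIA females the PLX log2 fold changes of Fos were -0.83 and -0.79 and those of Junb -0.74 and -0.37, hippocampus first. In saline females, Fos had -0.13 and -0.04, where the PLX and control values covered nearly the same range in hippocampus (130 to 278 and 138 to 260). In MIA males, Fos had -0.45 and -0.11 and Atf3 0.09 and -0.96. By limma, edgeR and DESeq2 no member passed within any stratum. Before adjustment (p under 0.05), limma had Fos lower and Jun higher in saline males and Junb lower in MIA females in hippocampus, and in prefrontal cortex Fosl2 higher in saline males and Fos and Atf3 lower in MIA females. The shares of genes at that threshold were 20.2% in saline males, 7.71% in MIA females, 22.7% in saline females and 28.2% in MIA males in hippocampus, and 27.8%, 7.59%, 17.8% and 24.9% in prefrontal cortex. After adjustment, 0.0301% of hippocampal genes passed in saline females, 0.0251% in saline males, 0.00502% in MIA females and 0.00502% in MIA males. In prefrontal cortex these shares were 0.0252%, 0.338%, 0.0252% and 0.0202%.

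Of the 20 immediate early genes, 10 fell and 0 rose with PLX in hippocampus, among them Nr4a1 (log2 -0.46, limma adjusted p = 0.00282), an activity-induced nuclear receptor, and Egr1 (-0.44, adjusted p = 0.0138), a zinc finger factor. The list's median was -0.27, and 10 of 20 stands beside 40.0% of all genes called. In prefrontal cortex 3 of 20 fell and 0 rose, Ier2 (-0.42), Nr4a1 (-0.35) and Ccn1 (-0.52), with a median of -0.14, beside 37.8% of all genes called. With a term for the parting libraries, or without those libraries, 0 of 20 passed in either tissue (at an unadjusted p under 0.05, 6 were lower in hippocampus under either setting, against 14.8% and 10.7% of genes in either direction, and 5 or 1 in prefrontal cortex, against 12.3% and 9.85%), and the medians were -0.24 or -0.23 in hippocampus and -0.11 in prefrontal cortex.

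The counts in the other lists came from the fit with all libraries, and with a term for the parting libraries or without them 0 genes of each of these lists passed in either tissue. The shares below are to be read against the 40.0% of genes called in hippocampus and 37.8% in prefrontal cortex, and most lie near them. Of 29 upstream kinases and factors, 12 rose and 2 fell in hippocampus and 12 rose and 3 fell in prefrontal cortex. Hippocampal examples were Camk4 (log2 0.45), a nuclear calcium-dependent kinase that phosphorylates CREB, Mrtfb (0.26), a coactivator of serum response factor, and Crtc1 (0.18), a CREB coactivator. Of 21 leucine zipper partners, 3 rose and 5 fell in hippocampus, among the latter Atf4 (-0.21), the factor of the integrated stress response, and 6 rose and 4 fell in prefrontal cortex. Of 14 feedback inhibitors, 1 rose and 4 fell in hippocampus, including the phosphatase Dusp1 (-0.41, limma adjusted p = 0.00582), and 2 rose and 2 fell in prefrontal cortex. Of 19 AP-1 targets, 2 rose and 5 fell in hippocampus and 6 rose and 1 fell in prefrontal cortex. Of 12 injury genes that accompany Atf3, 1 rose and 2 fell in hippocampus and 2 rose and 3 fell in prefrontal cortex.

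Next, agreement of both tissues of the same label was measured. For each member, the deviation of every library from its group mean (log2) in hippocampus was set against that in prefrontal cortex over 48 labels, which removes the group effects. Fos agreed most: Pearson's r was 0.84 (permutation p = 0.0001, the smallest that 10000 permutations can give, and 0.000393 adjusted over all 19366 genes) and Spearman's rho 0.81 (permutation p = 1e-05, the smallest that 100000 can give). Without the 2 labels farthest from the median r was 0.83. Here and below, those labels were picked by hippocampal values alone, before group means were removed. Labels extreme only in prefrontal cortex therefore stayed in. The label with the lowest Fos of its group was the same in both tissues in 6 of 8 groups, and the label with the highest Fos in 3 of 8.

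Fosl2 had r = 0.72 (rho 0.73, permutation p = 1e-05 for each), Fosb 0.70 (rho 0.65, p = 1e-05 for each) and Junb 0.62 (rho 0.58, permutation p = 8e-05 and 0.00013). Without the 2 farthest labels these were 0.74, 0.68 and 0.57. Atf3 had r = 0.42 (permutation p = 0.00592) and rho 0.39 (p = 0.00623), and r fell to 0.29 without its 2 farthest labels. Jun had 0.38 (permutation p = 0.0144) and rho 0.32 (p = 0.0381), with 0.34 without them. Jund had 0.31 (permutation p = 0.0424) and rho 0.26 (p = 0.0953), with 0.25 without them. Fosl1, at a few reads, had r = 0.08 (permutation p = 0.616) and rho 0.04 (p = 0.797).

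Among the 34 labels that did not part from the rest, r was 0.83 for Fos, 0.77 for Fosl2, 0.69 for Fosb, 0.59 for Junb, 0.42 for Atf3, 0.29 for Jun and 0.12 for Jund. Among the 14 parting labels it was 0.94, 0.60, 0.82, 0.76, 0.19, 0.78 and 0.61 in the same order. The r of Jun and Jund was thus lower outside the parting labels, a difference that was not tested. Jund and Junb have GC-rich transcripts (67.1% and 62.6% GC, against 51.9% for Fos). As a description, the deviations of Jund had r = 0.53 in hippocampus and 0.76 in prefrontal cortex with a library's balance of GC-rich against GC-poor genes, and those of Fos had 0.22 and -0.06. With that balance removed, r over all 48 labels was 0.57 for Jun, 0.47 for Jund, 0.76 for Junb and 0.83 for Fos. It was 0.70 for Fosl2, 0.69 for Fosb and 0.33 for Atf3. It thus rose for Jun, Jund and Junb, fell for Atf3 and changed little for Fos, Fosl2 and Fosb.

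Agreement between tissues was common in the transcriptome. With p adjusted over all genes, 6 of 7 members passed, all but Jund, against 54.1% of genes. An r of at least 0.5 was reached by 4 of 7 members, Fos, Fosb, Fosl2 and Junb, against 36.0% of genes, and the median r over all genes was 0.38. Fos stood at the 95.1 percentile of genes and Jund at the 40.7 percentile. Of the 20 immediate early genes, 15 reached an r of 0.5, with a median of 0.67.

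**Figure D3:**
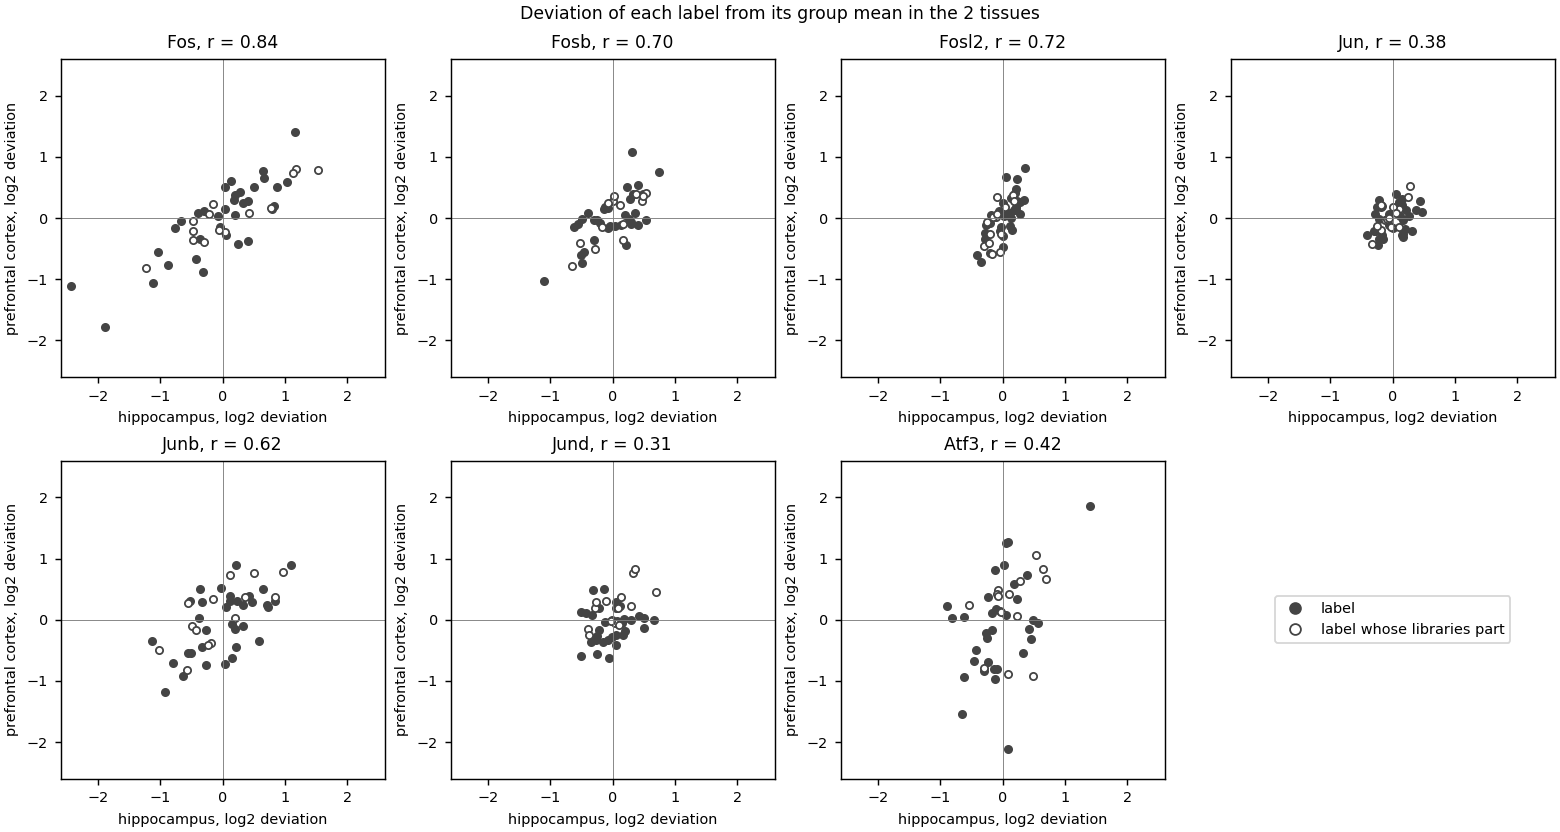
Deviation of each library from its group mean (log2 normalised count + 1) in hippocampus (x) and prefrontal cortex (y), 1 point per label, for 7 members, with open circles for parting labels. Fos lies along a line (r = 0.84), whereas Jund scatters (r = 0.31).

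The spread behind these correlations differed between members. The SD of Fos within groups was 0.85 in hippocampus and 0.64 in prefrontal cortex on the log2 scale, against 0.08 and 0.05 from counting error alone and a median gene's SD of 0.21 and 0.22. Prefrontal Atf3 had an SD of 0.83, against 0.23 from counting error alone, and hippocampal Atf3 had 0.47, against 0.31. Junb had 0.58 and 0.56. The lowest SDs were those of Fosl2 in hippocampus (0.22) and Jun in prefrontal cortex (0.25). With 5 to 7 libraries per group, a spread of this size limits what a Fos comparison can show.

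Within a tissue, the members moved together in pairs that followed the subfamilies in part. Over 48 libraries and 42 relations, 14 of 21 pairs passed in hippocampus and 16 of 21 in prefrontal cortex (permutation p, Benjamini-Hochberg adjusted over the 42). The share of passing pairs among other genes was not computed. These counts therefore do not show that members move together more than other genes do. Fos with Fosb had r = 0.78 and 0.79 (rho 0.76 and 0.73, adjusted permutation p = 3.5e-05 for each r), and 0.75 in each tissue without the 2 farthest libraries. For pairs, the farthest libraries were picked by the first-named gene alone, before group means were removed. Fos with Junb, its inducible partner, had 0.80 and 0.72 (rho 0.82 and 0.69), and 0.79 and 0.64 without the 2 farthest. Jun with Jund had 0.79 in each tissue (rho 0.80 and 0.78), and Jun with Junb 0.73 and 0.85 (rho 0.74 and 0.87). Fosl2 with Jund was near 0 in prefrontal cortex, with r = 0.01 (adjusted permutation p = 0.926) and 0.16 in hippocampus (adjusted permutation p = 0.334).

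Atf3 was most correlated with Fosb and then Fos in each tissue. With Fosb it had r = 0.39 in hippocampus (adjusted permutation p = 0.0164) and 0.75 in prefrontal cortex (6.46e-05), and with Fos 0.30 (0.0538) and 0.73 (3.5e-05). With Junb it had 0.17 (0.307) and 0.62 (0.00012). Outside the parting libraries, Fos with Atf3 had 0.26 and 0.75. The difference of these correlations between tissues was not tested, and hippocampal Atf3 is counted from fewer reads.

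**Figure D4:**
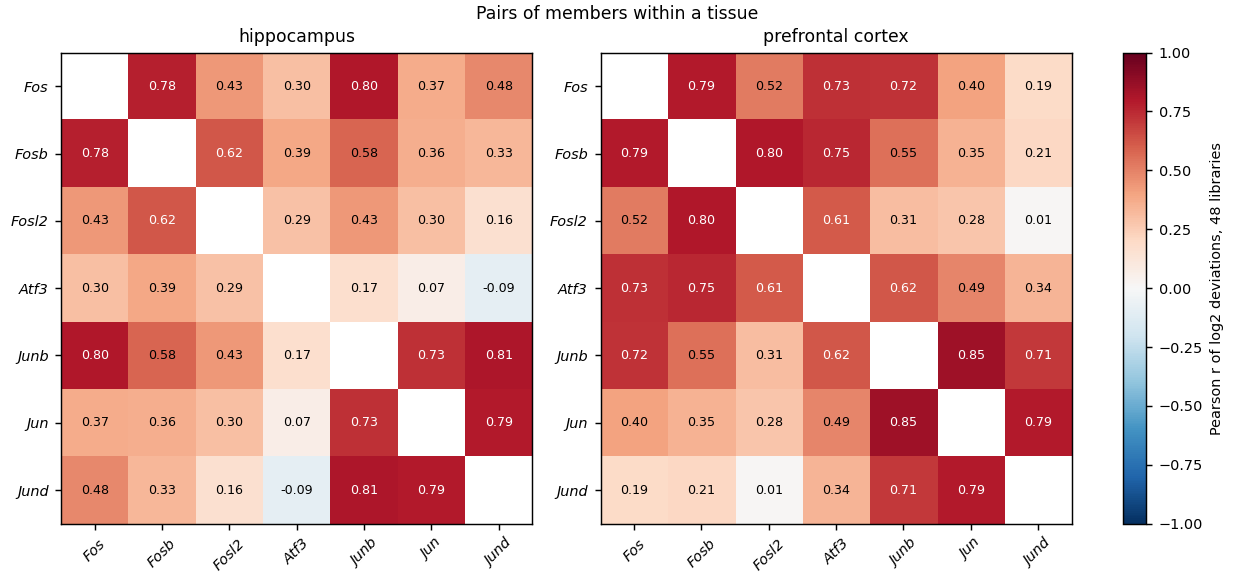
Pearson's r between the deviations of each pair of 7 members from their group means, in hippocampus and prefrontal cortex (48 libraries each). Fos with Junb has 0.80 and 0.72 and Fosl2 with Jund 0.16 and 0.01, and the Atf3 row reaches 0.75 in prefrontal cortex but 0.39 in hippocampus.

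For likeness, genes outside the family were ranked by the lower of their r in both tissues, over 48 libraries each, with Gm and Rik names passed over. The genes most like Fos were Nr4a1 (r = 0.92 in hippocampus and 0.93 in prefrontal cortex), Egr2 (0.96 and 0.90), Npas4 (0.86 and 0.90), Sik1 (0.83 and 0.86) and Dusp1 (0.83 and 0.86). Those most like Fosb were Egr2 (0.81 and 0.85), Nr4a3 (0.78 and 0.79), Egr1 (0.77 and 0.79), Arid5a (0.80 and 0.76) and Klf4 (0.72 and 0.79). Fosl2 had Ipmk (0.72 and 0.72), Nr4a3 (0.68 and 0.90), Tent5a, Bcor and Dcun1d3. Junb was closest to Egr4 (0.94 and 0.88), and Mex3d, Ier2 and Irf2bpl were also among its nearest. Atf3 had lower values, led by Gch1 (0.58 and 0.55) and Nfil3 (0.51 and 0.67), then Klhl21, Arid5a and Klf10. Jun was closest to Irf2bpl (0.89 and 0.89), then Zbed5, Icam5, Trir and Prr7. Jund was closest to Trir (0.88 and 0.91), then Ssbp4, Irf2bp1, Chchd2-ps and Zbed5. These are descriptions across libraries that share depth and preparation.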

How the data were processed

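The deposited table holds counts divided by a size factor per library, so its unit is signal (normalised counts). Per the submitters' processing notes, reads were trimmed with Trimmomatic and aligned with STAR 2.6.1d to GRCm39; the counting tool was not given in the sources used here. Values in every library came out as whole reads (100%, tolerance 0.01) after multiplying by a factor of 0.898 to 1.112; where a factor lay near 1 this says little. The tested genes reached a signal of 10 in 5 or more libraries of a tissue; the test was limma 3.58.1 (trend, R 4.3.3) on log2(signal + 1), with 8 groups per tissue (16 for tissue differences) and Benjamini-Hochberg adjustment over all genes, at 0.05. The recovered reads were tested with edgeR 4.0.16 and DESeq2 1.42.0 as alternatives. Other alternatives were array weights, a term for the parting libraries or their removal, a term for GC balance, filters, pseudocounts, a replicate block, and leaving out each library. Correlations used group-centred values and permutations within groups. The GC balance, the tissue correlations of all genes and the list counts without the parting libraries were added after seeing the data. Per kilobase values used GRCm38 transcript lengths. All 8 members are named; list genes are named only where called or as examples by smallest p, and likeness takes the 5 highest genes, of which 1 is not reported here. The members and lists were chosen with earlier results of these data known. The tests were checked on simulated data.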

Additional observations from a re-analysis of the deposited data

Results flagged for a closer look

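A single library stood far from the rest of its group in 7 of 128 sets of values examined (8 members in 16 groups, which are not independent). The threshold has a nominal rate of about 1 in 20 sets for normally distributed values. It was applied to normalised counts without a log, so that rate may not hold here. Every flagged library was the highest of its group. Atf3 was 63.1 in the hippocampus and 92.0 in the prefrontal cortex of MIA PLX males replicate 3, where the other libraries had 16.7 to 21.5 and 13.4 to 28.1 normalised counts. Fosb was 910 in the prefrontal cortex of MIA PLX females replicate 3, against 624 to 720 in the others. Jun was 3298 in the hippocampus of MIA control males replicate 5, against 2135 to 2397. Jund was 1457 in the prefrontal cortex of saline control males replicate 4, against 614 to 805, and 973 in that of saline PLX females replicate 6, against 579 to 687. Fosl1 was 6.89 in the hippocampus of saline control males replicate 4, against 1.88 to 3.60.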

How the results depend on the processing

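For the averaged PLX comparison the 1 member called in hippocampus became 0 with a term for the parting libraries, with a GC term and without those libraries, and 2 with array weights, edgeR or DESeq2. In prefrontal cortex the 1 became 0 under the first 3 and under a replicate block (Atf3 adjusted p = 0.0534), and 2 with edgeR or DESeq2. Replicate numbers did not pair the samples, since 9 of 48 hippocampal and 7 of 48 prefrontal libraries correlated best with their own number. A replicate block on the label that both tissues share changed no member's call between tissues. Leaving out 1 library gave 0 to 2 in each tissue; Junb joined in hippocampus in 6 of 48 cases, and Fos in prefrontal cortex without MIA control males replicate 2. For MIA against saline, averaged, the 0 members called became 2 with array weights and 1 with DESeq2 in hippocampus and 2 with DESeq2 in prefrontal cortex. In control females 0 became 1 with the term for the parting libraries (Fosb) or DESeq2 and 2 with array weights in hippocampus, and 1 with DESeq2 in prefrontal cortex, with 0 to 1 on leaving out 1 library in each. Array weights gave 1 for PLX in saline males in hippocampus (Fos) and 1 in MIA males in prefrontal cortex (Atf3). Of 8 members, 7 agreed between tissues when adjusted over the 8 relations, 3 among the parting labels alone and 4 without the 2 farthest labels; pairs passing went from 14 to 1 in hippocampus and from 16 to 2 in prefrontal cortex among the parting libraries alone, where Jund with Atf3 reversed to r = -0.01. Fewer labels enter those fits. Elsewhere the cause was not tested. Depth limits Fosl1 and hippocampal Atf3. Shares of all genes called under these alternatives are not given in this section, so the counts have no background beside them.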
